A study of Homo sapiens with 12 samples.

Results

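CBFB encodes the beta subunit of the core binding factor, and RUNX1, RUNX2 and RUNX3 encode its 3 alternative DNA-binding alpha subunits. These 4 genes were picked by name from the 56632 Ensembl genes of each deposited table, and 3 of the 4 (CBFB, RUNX1 and RUNX2) passed the filter on low counts that left 16275 genes for testing. RNA was measured in MCF10A, a non-tumorigenic human mammary epithelial line, either unmodified (WT) or after CRISPR-Cas9 deletion of CBFB (CBFB_KO). Lysates were held with cycloheximide, which stops ribosomes on the mRNA, and run on 10 to 50% sucrose gradients, from which RNA free of ribosomes (free), RNA on single ribosomes (mono) and pooled polyribosomal RNA (poly) were sequenced. Each of the 6 combinations of genotype and fraction had 2 libraries, labelled replicates 1 and 2, and nothing else distinguished the groups. The knockouts of this study were grown from single-cell colonies, so CBFB_KO stands for clonal cells, and the labels do not say which guide or how many clones these libraries came from. They also do not say that replicates came from separate cultures, so every p-value measures the spread between these libraries only. Since each library pools RNA from many cells, fewer cells holding an mRNA and less of it per cell cannot be told apart.

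As background, a RUNX protein binds DNA through its Runt domain, and CBFB, which does not bind DNA itself, raises that affinity and has been described to shield RUNX from degradation. In CBFB_KO MCF10A cells, however, the study reported that blocking proteasomal and lysosomal degradation did not restore RUNX1 protein. RUNX1 is best known in blood formation, RUNX2 in bone and RUNX3 in neurons and lymphocytes. In breast, RUNX1 is found in luminal and basal epithelium, and both CBFB and RUNX1 are mutated in breast tumors. In luminal-type breast cancer lines the study found RUNX1 protein almost undetectable. The study asked whether CBFB also acts in the cytoplasm, on the translation of mRNAs such as RUNX1 that it meets through hnRNPK, a protein that binds runs of C.

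The sequences below are those the measurements turn on, the 2 guides designed against CBFB and the 3 C-rich stretches that the study mutated in the RUNX1 3′ UTR. In guide 31, capitals mark the 10 bases that match the antisense strand of the last bases of exon 2 of CBFB, a coding exon (chr16:67029804-67029813, GRCh38, the annotation of GENCODE 29). The remaining bases run past the exon end, and the 3 bases 3′ of the guide, read within the exon, are CGG, the PAM form of Cas9. Guide 23 held no stretch of 10 bases or more that matched a CBFB exon, and its place in the gene was not analysed here.
guide 31: gccgacttacGATTTCCGAG
guide 23: cagattgtcacttgaacgcg
In the RUNX1 stretches, capitals mark the bases that the mutant oligos change, 15 in site 1, 9 in site 2 and 8 in site 3. All lie within 1 fragment of 184 nt of the 3′ UTR on the minus strand of chromosome 21 (chr21:34789228-34789411, GRCh38), at chr21:34789323-34789351, chr21:34789271-34789296 and chr21:34789229-34789243.
site 1: CCCtCCCtctcttCCCCCCaatatctCCC
site 2: aaaCCCCactttctCCCtcctCCttt
site 3: ataCCCCCaCCCagt
Of the 17 RUNX1 transcripts in GENCODE 29, 3 hold this fragment and are 5967 to 7274 nt long. The 14 without it are at most 3622 nt long. The deposited tables were made on another build (hg19) and list 19 RUNX1 transcripts, these 3 among them.

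The libraries held 41050325 to 63886726 expected counts, RSEM's estimate of the reads per gene. At that depth 3 counts, taken here as the limit of detection for counting error alone, correspond to 0.047 to 0.0731 CPM, a count scaled to the library total. Both CBFB_KO free libraries stood apart, with 71.56% and 87.22% of their counts on mitochondrially encoded genes against at most 20.81% elsewhere, which left 13568143 and 5247878 counts on all other genes against 43279862 or more elsewhere. TMM normalization, which sets the scale from the bulk of genes, and plain library size therefore place the CBFB_KO free fraction very differently: the median log2 change of all genes in the free fraction was 0.04 with TMM and -1.57 with library size. The 2 CBFB_KO poly libraries were nearly alike, with a mean chi-square per gene of 2.21 against 119 to 902 in the other groups, and were kept as separate samples. All 10 markers of basal mammary cells were detected. Their summed level was 114 and 720 TPM in CBFB_KO free against 1714 and 2072 TPM in WT free, 371 to 682 TPM in the mono libraries and 4534 to 5870 TPM in the poly libraries, and the summed luminal markers stood at 12.4 and 72.4 TPM in CBFB_KO free against 384 and 510 TPM in WT free. TPM includes the mitochondrial counts, and with TMM the direction in the free fraction was the other, with a median log2 change of 0.73 over the 10 basal markers (3 called higher, 0 lower) and of 1.26 over the 5 luminal markers tested (2 higher, 2 lower). The part of these markers in the results on the free fraction was not tested. Of the luminal markers, PGR and TFF1 were at 0 in all libraries, as were PTPRC, COL1A2, COL3A1 and LUM of the leukocyte and fibroblast lists, while CDKN2B, deleted in MCF10A, was at 0 and CDKN2A reached at most 1 count.

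CBFB mRNA was still counted in every CBFB_KO library, at a lower level than in WT on single ribosomes and on polyribosomes, although neither difference passed the test. The deposited expected counts of CBFB (ENSG00000067955, chr16:67029116-67101058, plus strand, GRCh38) were 376 and 982 in WT free, 468 and 288 in WT mono and 597 and 620 in WT poly. In CBFB_KO they were 267 and 139 in free, 258 and 141 in mono and 277 and 340 in poly. Gene counts do not show an edit of a few bases, so they check the label only in part. In TMM-normalized CPM, CBFB stood at 6.28 ± 0.794 (SD, n = 2) in WT poly and 3.8 ± 0.3 (SD, n = 2) in CBFB_KO poly, and at 7.12 ± 1.29 and 4.34 ± 0.639 (SD, n = 2) in the mono fractions. In both fractions both CBFB_KO libraries lay below both WT libraries, which was also the case for 12.9% of all genes tested in mono and 25% in poly. edgeR's quasi-likelihood test gave a log2 change of -0.72 (SE 0.43, adjusted p = 1) in poly and -0.71 (SE 0.43, adjusted p = 1) in mono. In the free fraction the libraries overlapped, at 5.37 and 12.6 CPM in WT and 11.3 and 14.1 CPM in CBFB_KO, and the log2 change of 0.49 (SE 0.43, edgeR adjusted p = 0.373) turned to -1.27 with library size in place of TMM. CBFB was therefore not shown to change in any fraction, and in the free fraction its direction depended on the scale.

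RUNX1 was called higher in the free fraction of CBFB_KO cells, and this was the 1 fraction in which it was called between the genotypes. Its expected counts (ENSG00000159216, chr21:34787801-36004667, minus strand, GRCh38) were 1013 and 2217 in WT free and 4444 and 3464 in CBFB_KO free. Both CBFB_KO libraries were above both WT libraries even before the smaller non-mitochondrial depth of CBFB_KO free was taken into account. In TMM-normalized CPM, RUNX1 was at 14.5 and 28.5 in WT free and 189 and 350 in CBFB_KO free, an order that 37.4% of all genes tested shared. The log2 change was 3.65 (SE 0.48), called by edgeR with an adjusted p of 0.000359, in a comparison where 42.3% of all genes were called and 24.2% were called higher. RUNX1 was called higher in 13 of the 14 alternative fits, with log2 changes of 1.78 to 4.16 in those 13. The exception was limma on log2(FPKM + 1), a unit scaled by gene length and whole library, at 0.33 (adjusted p = 0.514). Relative to the median of all genes, the change was 3.61 with TMM, 3.35 with library size and 2.25 with RSEM's effective length of each library as an offset, an alternative chosen after the lengths given further on were seen.

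On single ribosomes and on polyribosomes RUNX1 was not called between the genotypes. Its expected counts were 595 and 409 in WT mono, 671 and 381 in CBFB_KO mono, 813 and 760 in WT poly and 760 and 923 in CBFB_KO poly. The counts overlapped between the genotypes in both fractions. In TMM-normalized CPM both CBFB_KO values were above both WT values, in mono (10.2 and 8.81 in WT, 12.5 and 10.5 in CBFB_KO), as for 17% of all genes, and in poly (7.78 and 8.38 in WT, 9.84 and 10.9 in CBFB_KO), as for 24.7%. The log2 change was 0.27 (SE 0.44) in mono and 0.36 (SE 0.44) in poly, each with an edgeR adjusted p of 1. No member was called by edgeR in mono, where 0.147% of all genes were called (0.0307% higher, 0.117% lower) and 1 member (RUNX2) had an unadjusted p under 0.05. None was called in poly, where 0.19% of all genes were called (0.0246% higher, 0.166% lower) and no member had an unadjusted p under 0.05, and DESeq2 called no member in either fraction.

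**Figure D1:**
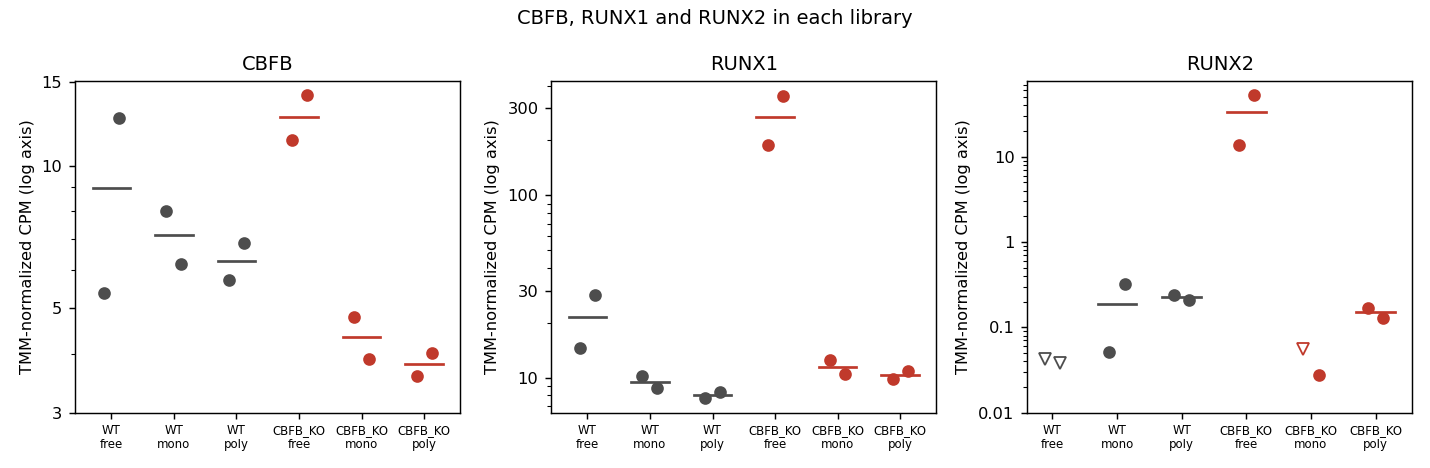
TMM-normalized CPM (log axis) of CBFB, RUNX1 and RUNX2 in each of the 12 libraries, by genotype and fraction. Points are libraries, bars are means of groups without a 0, and open triangles mark libraries with 0 counts, drawn at the level of 3 counts. RUNX1 and RUNX2 are highest in the 2 CBFB_KO free libraries (189 and 350 CPM, 13.6 and 52.7 CPM), and CBFB is lowest in CBFB_KO mono and poly.

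Over the 6 groups, TMM-normalized RUNX1 was highest in CBFB_KO free, followed by WT free, and the libraries of these groups were apart from each other and from the rest. The next groups, CBFB_KO mono at 11.5, CBFB_KO poly at 10.4 and WT mono at 9.51 CPM, overlapped with the next among them, and WT poly was last at 8.08, apart from WT mono. CBFB had the order CBFB_KO free, WT free, WT mono, WT poly, CBFB_KO mono and CBFB_KO poly, and the libraries of neighbouring groups were apart only between WT poly and CBFB_KO mono. In TPM, which is scaled per length and to the whole library, RUNX1 was instead highest in WT free (6.39 and 12.2 TPM) and second in CBFB_KO free (8.4 and 5.44 TPM), with overlapping libraries. CBFB in TPM was lowest in CBFB_KO free (1.3 and 0.46 TPM). Thus the place of CBFB_KO free in each order depended on the unit.

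The poly to free ratio, the study's measure of ribosome loading, fell for RUNX1 in CBFB_KO when computed from counts with TMM. The log2 difference between the ratios was -3.29 (SE 0.63, edgeR adjusted p = 0.00567), in a comparison where 18.4% of all genes were called, 14.3% lower and 4.1% higher. For CBFB it was -1.22 (SE 0.61, edgeR adjusted p = 0.164). The mono to free ratio gave -3.38 (SE 0.63, edgeR adjusted p = 0.00538) for RUNX1 and -1.21 (SE 0.61, edgeR adjusted p = 0.163) for CBFB, with 19% of all genes called, 14.2% lower and 4.87% higher. These comparisons share the free libraries, so they are not separate evidence. The poly to mono ratio, which does not use the free libraries, differed by 0.09 (SE 0.62) for RUNX1 and by -0.01 (SE 0.61) for CBFB, each with an edgeR adjusted p of 1. edgeR called no member and 0% of all genes in this ratio, no member had an unadjusted p under 0.05 (164 of all genes did), and DESeq2 called none. The call for RUNX1 in the poly to free ratio was lost with library size in place of TMM (-1.42, adjusted p = 0.159), with the effective length as offset (-2.09, adjusted p = 0.0531), with limma on log2(FPKM + 1) (-0.19, adjusted p = 0.806) and without CBFB_KO replicate 2 (-2.86, adjusted p = 0.106). In the mono to free ratio it was lost under the same 4 settings and also without WT replicate 1 (-2.86, adjusted p = 0.0511).

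**Figure D2:**
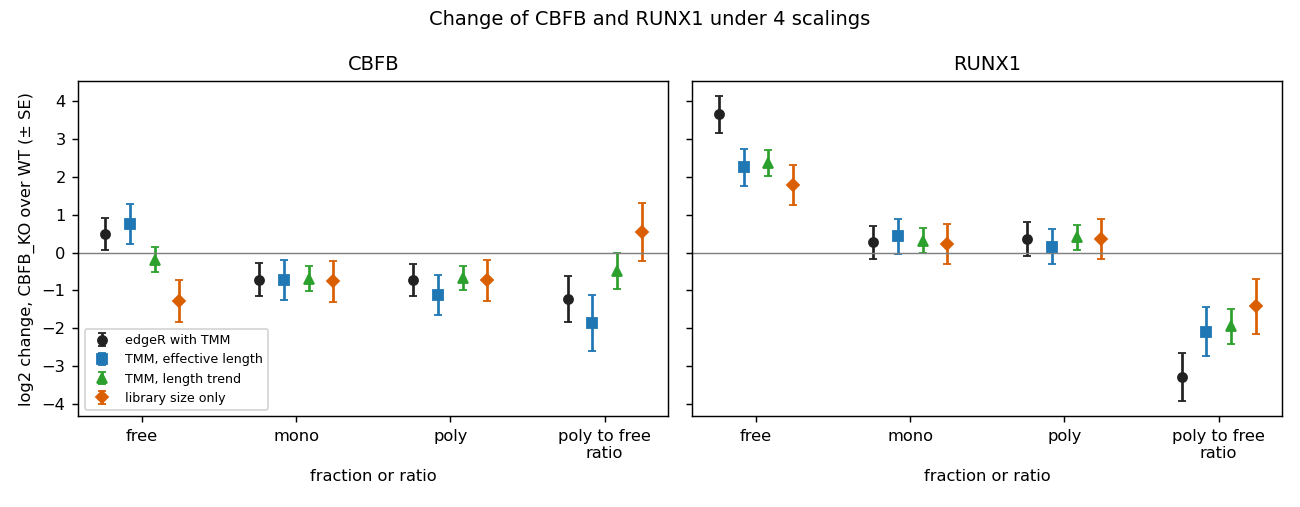
Log2 change of CBFB (left) and RUNX1 (right) between CBFB_KO and WT in the free, mono and poly fractions and in the poly to free ratio, with 4 scalings of the counts in edgeR. Points are estimates and bars are standard errors. RUNX1 in free stays above 0 under all 4 (1.78 to 3.65), whereas CBFB in free lies on both sides of 0 (-1.27 to 0.75), and the scalings differ least in mono and poly.

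The study's cutoff was a 50% decrease of the poly to free ratio, for which no unit is given in the sources used here. With mean FPKM, chosen here, neither gene passed this cutoff. The study used the cutoff for its count over all mRNAs in the sequenced fractions. For RUNX1 itself it reported a larger share in the free fraction of CBFB_KO by real-time PCR, which was not measured here. RUNX1 FPKM was 8.36 and 16.3 in WT free, 4.06 and 5.14 in WT poly, 15.8 and 14.2 in CBFB_KO free and 4.88 and 5.37 in CBFB_KO poly. The poly to free ratio of the means was 0.373 in WT and 0.341 in CBFB_KO, so the knockout's ratio was 0.915 of the WT ratio (log2 -0.13, SD 0.40 over the 4 pairings of a WT with a CBFB_KO gradient). For CBFB the ratios were 1.33 and 1.28, a quotient of 0.965 (log2 -0.05, SD 0.79 over the same pairings). The single pairings ran from 0.634 to 1.2 for RUNX1 and from 0.52 to 1.77 for CBFB, so both lay on either side of 1. The 4 pairings reuse the same gradients, so their SD is not a spread over independent replicates. Among 7126 genes whose group means reached 1 FPKM in all 4 conditions, 8.1% were below 0.5 of WT, the median log2 change was 2.14, and 15.2% lay below RUNX1 and 16% below CBFB. In TPM rescaled without the mitochondrial genes, the quotient was 0.156 for RUNX1 and 0.179 for CBFB. That scale also lowered the quotient of other genes, from 1.21 to 0.207 for HNRNPK and from 0.931 to 0.159 for NOTCH3. The share of all genes below 0.5 on that scale was not analysed here, so the low quotients do not set RUNX1 and CBFB apart. Whether RUNX1 and CBFB pass the cutoff thus depends on how the mitochondrial counts of the CBFB_KO free libraries are handled.

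Within CBFB_KO, RUNX1 and CBFB were lower on polyribosomes than in the free fraction with TMM. The log2 change from free to poly in CBFB_KO was -4.70 (SE 0.51, edgeR adjusted p = 0.000131) for RUNX1 and -1.74 (SE 0.45, edgeR adjusted p = 0.0132) for CBFB, in a comparison where 31.4% of all genes were called and 16.7% called lower. The call for CBFB was lost when the CBFB_KO poly libraries were averaged (-1.71, adjusted p = 0.115) and when either CBFB_KO replicate was left out (replicate 1, -1.78, adjusted p = 0.138, and replicate 2, -1.64, adjusted p = 0.267), and its value turned to 0.54 with library size in place of TMM. In WT the change was -1.41 (SE 0.44, edgeR adjusted p = 0.0417) for RUNX1, a call that 9 of the 14 alternatives lost, and -0.52 (SE 0.43, edgeR adjusted p = 0.408) for CBFB, with 22% of all genes called (14% higher, 7.99% lower). Between poly and mono, edgeR called no member in WT, where 20.6% of all genes were called (11% higher, 9.68% lower), or in CBFB_KO, where 16.9% were called (8.2% higher, 8.66% lower). DESeq2 also called none, and RUNX2 in CBFB_KO was the 1 member with an unadjusted p under 0.05 there.

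RSEM's length of RUNX1, the mean length of its transcripts weighted by their estimated abundance, separated CBFB_KO free from all other libraries. It was 6092 and 6178 nt in CBFB_KO free, against 2127 and 2369 nt in WT free. In the mono fraction it was 2467 and 2991 nt in WT and 2170 and 2815 nt in CBFB_KO, and in the poly fraction 3323 and 3126 nt in WT and 3663 and 3690 nt in CBFB_KO. The CBFB_KO free values thus lay above the 3622 nt of the longest GENCODE 29 transcript without the fragment of the 3 C-rich sites shown above, and within the range of the 3 transcripts that hold it. The CBFB_KO poly values of 3663 and 3690 nt were also above 3622 nt, and the other 8 libraries were below it. The lengths of the remaining transcripts in the authors' annotation were not analysed here. The log2 change in length between the free fractions was 1.45, a rise that 1.63% of the 5884 genes with at least 50 counts in every library matched or passed (96 genes), with a median of 0.003 over these genes. The same change was -0.13 in mono and 0.19 in poly for RUNX1, and -0.13 in free for CBFB, whose length stayed between 1986 and 3077 nt. RUNX2 was at 5225 and 5200 nt in CBFB_KO free, which did not stand apart. On 3 to 25 counts per library, RUNX2 was at 2256 and 5390 nt in WT mono, 2106 and 4888 nt in WT poly and 5230 and 4264 nt in CBFB_KO poly. The length is an RSEM estimate over the authors' annotation with no error given, its cause was not tested, and it enters TPM and FPKM as a divisor but not the counts.

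**Figure D3:**
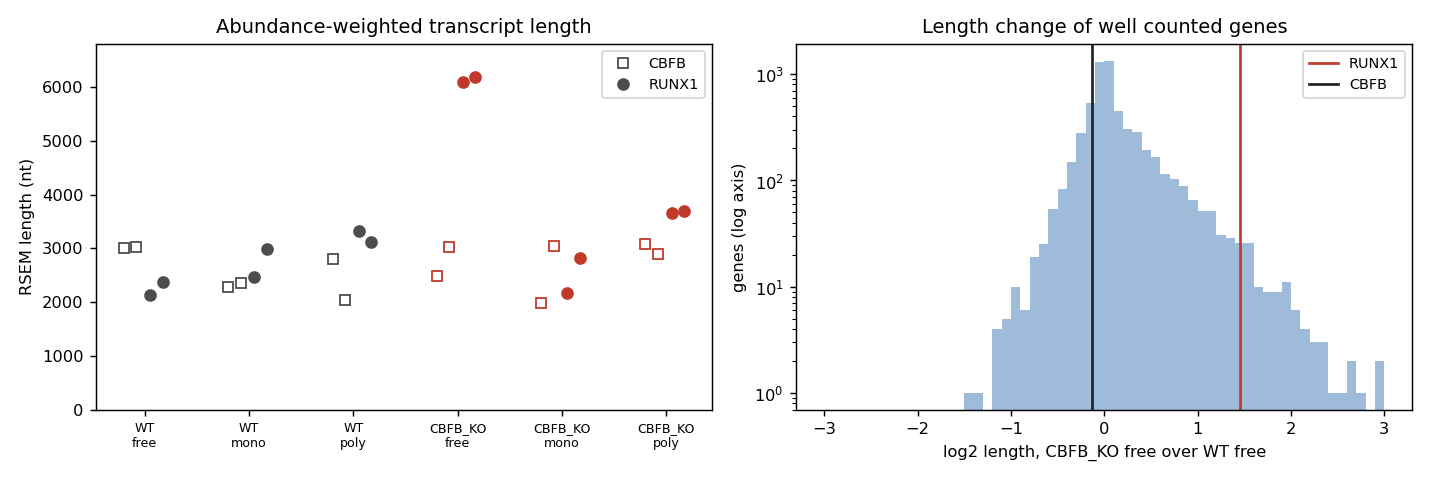
RSEM length in nucleotides of RUNX1 (filled circles) and CBFB (open squares) in each library (left), and the log2 change in length from WT free to CBFB_KO free over 5884 well counted genes (right, log axis, values beyond 3 drawn at the edge). RUNX1 is at 6092 and 6178 nt in the 2 CBFB_KO free libraries and at most 3690 nt in the others, and its change of 1.45 lies in the upper tail, with 1.63% of genes at or beyond it.

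RUNX2 (ENSG00000124813, chr6:45328157-45664349, plus strand, GRCh38) was nearly absent except in CBFB_KO free. Its expected counts were 0 and 0 in WT free, 3 and 15 in WT mono, 25 and 19 in WT poly, 321 and 521 in CBFB_KO free, 0 and 1 in CBFB_KO mono and 13 and 11 in CBFB_KO poly. Its calls in the free fraction and in the ratios to it rest on 0 counts in both WT free libraries, and they carry no weight as support. Set against 3 counts in each WT free library, its TMM-normalized level was at least 815-fold higher in CBFB_KO free, and at least 202-fold higher with library size. The TMM bound was at least 335-fold from CBFB_KO replicate 1 alone and at least 1294-fold from replicate 2 alone, a split added after the values were seen. In FPKM this amounted to 1.34 and 2.55 in CBFB_KO free and at most 0.2 elsewhere. RUNX2 was not called in mono (edgeR adjusted p = 0.953) or poly (adjusted p = 1). From free to poly in WT it was called higher, on counts of 0 and 0 against 25 and 19, and leaving out either WT replicate ended the call (adjusted p = 0.0964 and 0.0779). In CBFB_KO it was called lower from free to poly, a call that was lost without CBFB_KO replicate 2 (adjusted p = 0.0661).

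RUNX3 (ENSG00000020633, chr1:24899511-24965121, minus strand, GRCh38) had 0 counts in all 12 libraries, which allows up to 3 counts in each, or 0.047 to 0.0731 CPM. It was not tested. The antisense gene RUNX2-AS1 was also at 0 throughout, and RUNX3-AS1 had 3 counts in 1 CBFB_KO mono library and 0 in the others. The RUNX1 locus overlaps further annotated noncoding genes. Whether the authors counted by strand is not given in the sources used here, so reads of overlapping antisense transcripts may be among these counts.

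The ratio of RUNX1 to CBFB within a library does not depend on the scale between libraries. In TPM it does depend on the RSEM lengths, and that of RUNX1 was 6092 and 6178 nt in CBFB_KO free against 2127 and 2369 nt in WT free. In TPM it was 3.9 and 2.94 in WT free, 1.18 and 1.1 in WT mono and 1.13 and 0.776 in WT poly. In CBFB_KO it was 6.46 and 11.8 in free, 2.35 and 2.96 in mono and 2.27 and 2.1 in poly. In each fraction both CBFB_KO values were above both WT values, and the means were 9.14 ± 3.79 against 3.42 ± 0.68 in free, 2.66 ± 0.435 against 1.14 ± 0.0572 in mono and 2.19 ± 0.125 against 0.955 ± 0.254 in poly (SD, n = 2 each). With 2 libraries a group no exact test can reach the usual threshold, so these are given as a description. How many other pairs of genes share this order was not analysed here. Within both genotypes the free libraries had the highest ratios. The mono and poly ratios overlapped in WT, and in CBFB_KO they were apart by less than the spread of the mono pair.

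**Figure D4:**
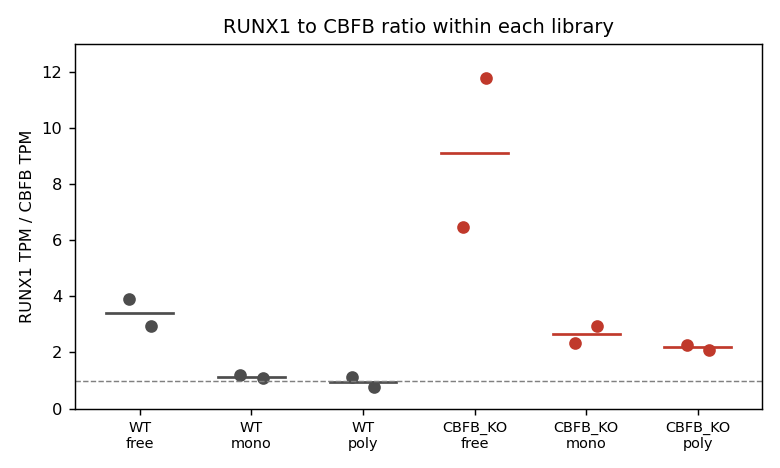
RUNX1 TPM divided by CBFB TPM within each library, by genotype and fraction. Points are libraries, bars are means of 2 and the dashed line is equal TPM. The CBFB_KO libraries lie above the WT libraries of the same fraction in all 3 fractions, and the highest ratios (6.46 and 11.8) are in CBFB_KO free.

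Of the genes whose products bind or modify RUNX proteins, more were called higher than lower in the free fraction with TMM. None was called on ribosomes, where few of all genes were called. Of 38 cofactors and modifiers listed, 34 were tested. In the free fraction edgeR called 18 higher and 5 lower in CBFB_KO, against 24.2% of all genes called higher and 18.1% lower. The median log2 change was 1.65 against 0.04 over all genes, and it was 0.03 with the offset for the length trend and -0.14 with library size. Among those called higher were the acetyltransferase EP300 (log2 change 4.78, SE 0.60, adjusted p = 0.000274), the kinase HIPK2 (3.76, SE 0.51, adjusted p = 0.00041) and the corepressor scaffold SIN3A (3.44, SE 0.48, adjusted p = 0.000504). EP300 went from 154 and 442 counts in WT free to 2035 and 1283 in CBFB_KO free. On ribosomes edgeR and DESeq2 called none of the 34 in mono or poly, where 0 and 2 had an unadjusted p under 0.05. Of all genes, edgeR called 0.147% in mono and 0.19% in poly, so the lack of calls does not set these genes apart. The split in free depended on the scale, with 6 higher and 11 lower by library size, and 9 higher and 7 lower with an offset for the trend of each library with gene length. Without CBFB_KO replicate 2 it was 7 higher and 0 lower. In the poly to free ratio, 10 were called lower and 1 higher, where 14.3% of all genes were called lower and 4.1% higher. In the mono to free ratio, with the same free libraries, it was 11 lower and 1 higher, against 14.2% and 4.87% of all genes.

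Of 25 genes with well known RUNX-bound regulatory regions, 13 were tested, most of the others being blood or bone genes with few or no counts. In the free fraction 4 were called higher and 1 lower, where 24.2% of all genes were called higher and 18.1% lower, so that the share called higher was near that of all genes. The median log2 change was 0.98 against 0.04 over all genes. The cyclin CCND1 (2.77, SE 0.48, edgeR adjusted p = 0.00166), the receptor NOTCH3 (1.44, SE 0.37, adjusted p = 0.0113) and the transcription factor FOXO1 (2.00, SE 0.56, adjusted p = 0.0168) were higher, and the metalloproteinase inhibitor TIMP1 was lower (-1.16, SE 0.39, adjusted p = 0.033). NOTCH3 turned with the scale, to -0.31 (adjusted p = 0.616) with library size and to a called -1.44 (adjusted p = 0.0187) with the offset for the length trend, and was not called without CBFB_KO replicate 2 (1.22, adjusted p = 0.126). With library size, 0 of the 13 were called higher and 4 lower, and without CBFB_KO replicate 2 the counts were 1 and 0. edgeR called none in mono or poly, where 1 and 2 had an unadjusted p under 0.05, and DESeq2 called none there. Of all genes, edgeR called 0.147% in mono and 0.19% in poly, so this lack of calls does not set the 13 apart. In poly, NOTCH3 lay the other way than in free with TMM, at 55.4 and 66 CPM in WT and 43 and 41.9 CPM in CBFB_KO. For 25% of all genes both CBFB_KO libraries were likewise below both WT libraries in poly. The study reported NOTCH3 as highly upregulated in CBFB_KO cells, with an immunoblot of its intracellular domain. Protein and total RNA were not measured in these libraries.

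Among the 10 genes that the study uses as a joint CBFB and RUNX1 signature, those called on ribosomes were lower in CBFB_KO, and those called in the free fraction were higher. The study picked them for lower total RNA in knockouts of the same line, so their direction here is not independent evidence. In poly, 5 of the 9 tested were called lower and none higher, where 0.166% of all genes were called lower. With group means below the limit of detection set to 3 counts per library, the median log2 change in poly was -4.65 and all 9 were below 0. The lipase gene PNLIPRP3 had 724 and 848 counts in WT poly and 26 and 25 in CBFB_KO poly (log2 change -4.68, SE 0.46, edgeR adjusted p = 0.00161). The formin FHOD3 had 558 and 831 against 28 and 21 (-4.56, SE 0.59, adjusted p = 0.00871). RNF165, a ubiquitin ligase gene, had 90 and 91 counts in WT poly and 0 and 0 in CBFB_KO poly, at least 25.1-fold lower. In mono, 2 of 9 were called lower and none higher, and the median with that limit was -2.33. Without CBFB_KO replicate 1 or CBFB_KO replicate 2 none was called in mono.

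In the free fraction 5 of the 9 were called higher and none lower, where 24.2% of all genes were called higher and 18.1% lower, and the median was 3.29 against 0.04 over all genes. RNF165 had 43 and 25 counts in WT free and 303 and 119 in CBFB_KO free (log2 change 4.73, SE 0.63, edgeR adjusted p = 0.000734), although CBFB_KO mono and poly held 0 in all 4 libraries. The receptor tyrosine kinase gene ROS1 had 142 and 73 counts in WT free and 266 and 175 in CBFB_KO free, against 83 and 201 in WT poly and 1 and 0 in CBFB_KO poly. Without CBFB_KO replicate 2, 1 of the 9 was called higher in free. With library size, 1 was called higher and 2 lower in free, whereas in poly 3 were called lower and none higher. With the 2 CBFB_KO poly libraries averaged as 1 sample, or without CBFB_KO replicate 1 or CBFB_KO replicate 2, none of the 9 was called in poly.

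**Figure D5:**
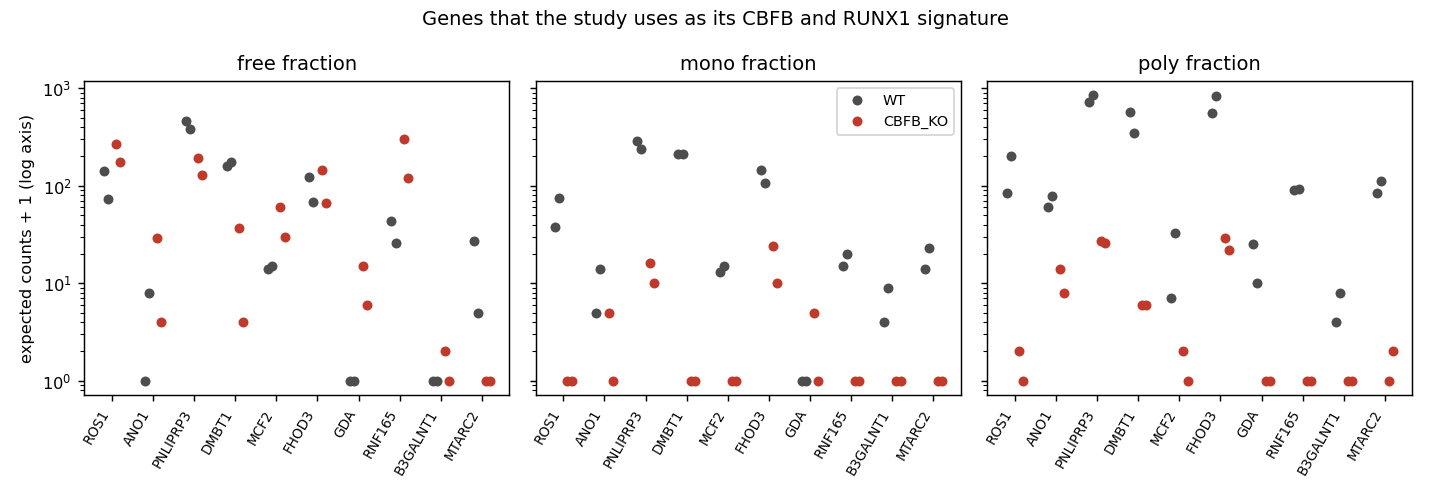
Expected counts plus 1 (log axis) of the 10 signature genes in the free, mono and poly fractions, with 2 points per gene and genotype. In poly the CBFB_KO points lie below the WT points for all 10 genes, whereas in free, before any scaling for depth, both CBFB_KO points are above both WT points for RNF165, MCF2, ROS1 and GDA.

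Of the other genes that the study set beside RUNX1, the glycolytic enzyme gene GAPDH was lower in the free fraction of CBFB_KO (log2 change -2.05, SE 0.59, edgeR adjusted p = 0.0191), though not called without CBFB_KO replicate 2 (-1.36, adjusted p = 0.134). EIF4B, which encodes a translation initiation factor, was higher at 2.45 (SE 0.38, adjusted p = 0.000877) in free, and its poly to free ratio was lower, at -2.61 (SE 0.52, adjusted p = 0.00665). With library size neither was called (0.68, adjusted p = 0.259, and -0.85, adjusted p = 0.361), and the ratio was also not called without CBFB_KO replicate 2 (-2.36, adjusted p = 0.122). HNRNPK, which encodes the C-binding partner, was at 1.01 (SE 0.37, adjusted p = 0.0481) in free, at -0.79 (adjusted p = 0.158) with library size, and not called without CBFB_KO replicate 2 (0.64, adjusted p = 0.364). None of these 3 was called in mono or poly (edgeR adjusted p = 1 for each). By real-time PCR, the study reported no change in the distribution of GAPDH over the fractions on CBFB deletion. In mean FPKM here, the poly to free ratio of GAPDH in CBFB_KO was 8.85 of the WT ratio (log2 3.15, SD 1.84 over the 4 pairings). The median log2 change over genes in that measure was 2.14. In TPM without mitochondrial genes the quotient for GAPDH was 1.75.

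Over the 12 libraries, the genes whose log2 CPM followed RUNX1 most closely were the chromatin regulator KMT2E (Pearson r = 0.994), the calcineurin subunit PPP3CB (0.990) and the cyclin CCNK (0.989). For CBFB they were PID1 (0.951), DLX2 (0.949) and GRAMD1B (0.934), and for RUNX2 BPNT2 (0.992), POM121 (0.988) and GSE1 (0.985). These are the 3 highest for each member among the 16275 genes tested, the points share 2 free libraries of unusual composition, and no test was made.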

How the data were processed

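The authors deposited 1 RSEM table per library with expected counts (estimated reads per gene), TPM, FPKM, and the length and effective length of 56632 genes. Per the labels, TruSeq mRNA libraries were sequenced on an Illumina NextSeq, and the submitters' processing notes name Trimmomatic, STAR, RSEM and hg19. Versions, strand setting and aligner parameters are not given in the sources used here. The deposited TPM and FPKM include mitochondrial genes in their totals and were not rescaled, except for the quotients in TPM without mitochondrial genes.

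Expected counts were rounded to whole numbers, filtered with filterByExpr, scaled by TMM and fitted over all 12 libraries with 6 groups by edgeR 4.0.16 (quasi-likelihood test, 2-sided, Benjamini-Hochberg adjusted p under 0.05) in R 4.3.3. SE is the log2 change divided by the root of F. There were 10 comparisons, between genotypes within fractions, between ratios of fractions (interaction) and between fractions within genotypes. DESeq2 1.42.0 and limma 3.58.1 (log2(FPKM + 1)) were among the alternatives. Scripts were tested on simulated data. FPKM ratios used group means of genes with at least 1 FPKM in each condition. For lower bounds and medians, group means below the level of 3 counts per library were set to that level, and such limits cover counting error only. Totals ran from 41050325 to 63886726 counts. Genes named are the members, the called genes with the smallest adjusted p of each list, and those the study names. For each member the 3 genes most like it over the libraries and annotated antisense genes were added, and GDA was named after its values were seen. A gene that this rule also names is not reported here. Members and lists were chosen with earlier results of these data known. Replicate numbers were checked for pairing by the correlation of replicate differences between WT and CBFB_KO, which was 0.07 in free, 0.24 in mono and 0.03 in poly, so that samples were taken to share only a number. RUNX3, at 0 in all libraries, was not tested, and sequence positions are from GENCODE 29 (GRCh38), not the hg19 of the files.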

Additional observations from a re-analysis of the deposited data

Results flagged for a closer look

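The effect of genotype on RUNX1 differed between fractions by the test of the difference itself. It was lower by -3.29 on the log2 scale in poly relative to free (edgeR adjusted p = 0.00567) and by -3.38 in mono relative to free (edgeR adjusted p = 0.00538), and both comparisons use the same free libraries. RUNX2 had fitted differences of -14.57 and -17.76 in the same comparisons, which rest on 0 counts in both WT free libraries and are no bounds. The CBFB_KO free libraries had 71.56% and 87.22% mitochondrial counts, and the part of this in the differences was not tested.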

How the results depend on the processing

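The limits are 2 libraries per group, CBFB_KO free libraries with few non-mitochondrial counts, and RUNX2 counts near the detection limit outside that group. The cause of the changes below was not tested.

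With library size in place of TMM, CBFB went from 0.49 to -1.27 in free, from -1.22 to 0.55 in the poly to free ratio, from -1.21 to 0.52 in the mono to free ratio, from -0.01 to 0.03 in the poly to mono ratio, and, within genotypes, to 0.54 (poly against free, CBFB_KO), 0.69 (poly against mono, WT) and 0.72 (poly against mono, CBFB_KO), while RUNX1 went to -1.42 in poly to free and to 0.64 and 0.77 in poly against mono in WT and CBFB_KO. The members called then numbered 1 in poly to free, mono to free, WT poly against free and CBFB_KO poly against mono (2, 2, 2 and 0 with TMM). With limma on log2(FPKM + 1), CBFB was -0.71 in free, 0.15 in mono to free, 0.38 and 0.27 in poly against free (WT, CBFB_KO) and 0.53 and 0.27 in poly against mono. RUNX1 was 0.33 in free, -0.19 in poly to free, -0.15 in poly to mono and 0.30 and 0.15 in poly against mono, RUNX2 was -0.06 in poly to mono, and 1, 1, 1 and 0 members were called in free, poly to free, mono to free and WT poly against free.

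With the length trend as offset, CBFB was -0.19 in free and 0.02 in poly to mono, and RUNX2 -0.44 in WT poly against mono. With effective length as offset, chosen after seeing the data, RUNX1 was -2.09 in poly to free and -0.27 in poly to mono, and 1 member was called in each ratio to free. With the gradient as a block, CBFB was 0.02 in poly to mono. In WT poly against free 1 member was called with the gradient as a block, without the filter and with the CBFB_KO poly libraries averaged, and in CBFB_KO poly against mono 1 was called without the filter. For the FPKM ratio, CBFB (-0.05) was -2.48 in TPM without mitochondrial genes, -1.22 in TMM CPM and -0.94 and 0.82 in the same-numbered pairings, and RUNX1 (-0.13) was -2.68, -3.29 and -0.66 in the pairing of gradients 1.

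Leaving out 1 replicate gave, for members called, 1 to 2 in poly to free, 1 to 3 in mono to free, 0 to 1 in WT poly against free and 1 to 3 in CBFB_KO poly against free. RUNX1 ran from -3.70 to -2.86 in poly to free, from -0.10 to 0.32 in poly to mono and from -0.32 to 0.08 in CBFB_KO poly against mono. CBFB ran from -0.34 to 0.37 in poly to mono, from -0.86 to 0.16 in WT poly against free, from -0.33 to 0.15 in WT poly against mono and from -0.40 to 0.05 in CBFB_KO poly against mono, and RUNX2 from -0.61 to 2.32 in WT poly against mono.

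Of all genes, 6882 were called in free, against 1623 without CBFB_KO replicate 2 and 1921 from the free libraries alone, and 3000 in poly to free, against 362 without CBFB_KO replicate 2, 823 with the CBFB_KO poly libraries averaged, 5377 by DESeq2, 5746 by limma and 4579 without the filter. In poly 31 were called, against 0 to 15 leaving out 1 replicate, 173 from the poly libraries alone and 111 by DESeq2. With TMM 57.3% of the calls in free were higher, and with library size 16.5%.

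With the replicate block, RUNX1 was 3.65 in free and -3.30 in poly to free, the number of members called did not change, and 7342 genes were called in free and 3612 in poly to free. The numbers do not show pairing.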
